A study of Homo sapiens with 4 samples.

Results

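The cyclins, the cyclin-dependent kinases (CDKs) and their direct regulators were examined in the RNA-seq data of BICR10 cells, a line from a human cancer of the head and neck, after silencing of YEATS2. The genes were taken by symbol, as the cyclins A to L, T1, T2 and Y, the CDKs with a plain number, the CDK inhibitors of the INK4 and CIP/KIP families with CDKN3, the CDC25 phosphatases, WEE1, PKMYT1, and the retinoblastoma family RB1, RBL1 and RBL2. This gave 59 of the 60623 genes in the count files. The symbol rule takes numbers without a letter after them, so CDK11A and CDK11B are not among the genes. The control cells (shControl) carried a lentiviral control hairpin and the silenced cells (shYEATS2) a lentiviral hairpin against YEATS2, a reader of histone crotonylation. Both were selected with puromycin, and each condition had 2 libraries. The labels do not say which YEATS2 hairpin was used, or that the libraries came from separate cultures, so the p-values measure the spread between these libraries, which may be technical. The question put to the data was how the transcripts that drive each phase of the cell cycle stood after the knockdown.

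Cyclins are the regulatory subunits that switch CDKs on, and the E-, A- and B-type cyclins are made and destroyed once in each cycle. D-type cyclins activate CDK4 and CDK6 in G1, and these kinases phosphorylate the pocket proteins RB1, RBL1 and RBL2 and so free E2F transcription factors. E-type cyclins with CDK2 carry cells into S phase, cyclin A with CDK2 and CDK1 acts through S phase and G2, and B-type cyclins with CDK1 start mitosis. INK4 proteins inhibit CDK4 and CDK6, CIP/KIP proteins bind a wider set of cyclin-CDK complexes, WEE1 and PKMYT1 hold CDK1 inactive by phosphorylation, and CDC25 phosphatases remove that phosphate. In head and neck cancer this pathway is known for loss of CDKN2A and gain of CCND1.

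The totals on genes ran from 39824898 to 47297970 counts in shControl and from 11334133 to 24072396 in shYEATS2, and this gap in depth cannot be told apart from the knockdown. YEATS2 itself stood at 66.1 and 66.7 CPM in the shControl libraries and at 29.3 and 29.1 CPM in the shYEATS2 libraries, where CPM is a gene's count relative to the library's total on genes, after scaling by edgeR's TMM method. Of the markers of squamous epithelium, KRT6A made up most of their summed level, at 55.0 and 58.2 CPM in shControl and at 1.38 and 2.21 CPM in shYEATS2, the largest fall among them (log2 fold change −5.09). In shControl, KRT5 was at 16.4 and 14.95 CPM and KRT14 at 1.24 and 1.19 CPM, and TP63 had 3 counts and 0 counts. Fibroblast markers were abundant, with a summed level of 7200 to 7290 CPM in shControl and 2210 to 2350 CPM in shYEATS2, and all 7 of them fell. The squamous markers summed to 74.6 to 75.8 CPM in shControl and 6.08 to 6.62 CPM in shYEATS2, with 4 lower, 1 higher (CDH1, with a log2 fold change of 2.91) and 2 not tested (KRT17 and TP63). Of the 5 leukocyte markers, CD14 was lower and 4 had too few counts to be tested, with CD3E and CD68 at 0 in every library. Of the 5 endothelial markers, KDR was lower, at 33.8 and 35.1 CPM in shControl and at 17.0 and 17.4 CPM in shYEATS2, PECAM1 was not called on 22 to 73 counts, and VWF, CDH5 and TIE1 had too few counts to be tested, with TIE1 at 0. The part of these markers in the results on cell-cycle genes was not tested.

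Of the 59 genes, 54 had enough counts to be tested with edgeR's quasi-likelihood test, in which a gene was called at an adjusted p under 0.05 over all 17058 genes tested. The 5 others were CCND2, CCNI2, CDK3, CDKN2A and CDKN2B. Of the 54 genes, 31 were called (57.4%), against 46.2% of all genes tested. The higher calls were 20 (37.0%, against 22.6% of all genes) and the lower calls were 11 (20.4%, against 23.6%). Log2 fold changes are given as shYEATS2 minus shControl, each ± its standard error. Their median was 0.09, beside −0.01 over all genes, and the median size regardless of direction was 0.28, beside 0.31. Of the 54 genes, 1 was called lower (CCNE2) and 1 higher (CCNA1, on at most 24 counts in a library) by at least 2-fold. Of all genes tested, 3.7% were called lower and 5.99% higher by at least 2-fold. The balance of directions moved with the scaling. With library totals alone, which raised the median of all genes from −0.01 to 0.13, 30 genes were higher and 8 were lower, so that 78.9% of the calls were higher in place of 64.5%. Both shYEATS2 libraries lay above both shControl libraries for 26 of the 54 genes (48.1%, against 35.3% of all genes) and below both for 16 (29.6%, against 36.3%).

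**Figure D1:**
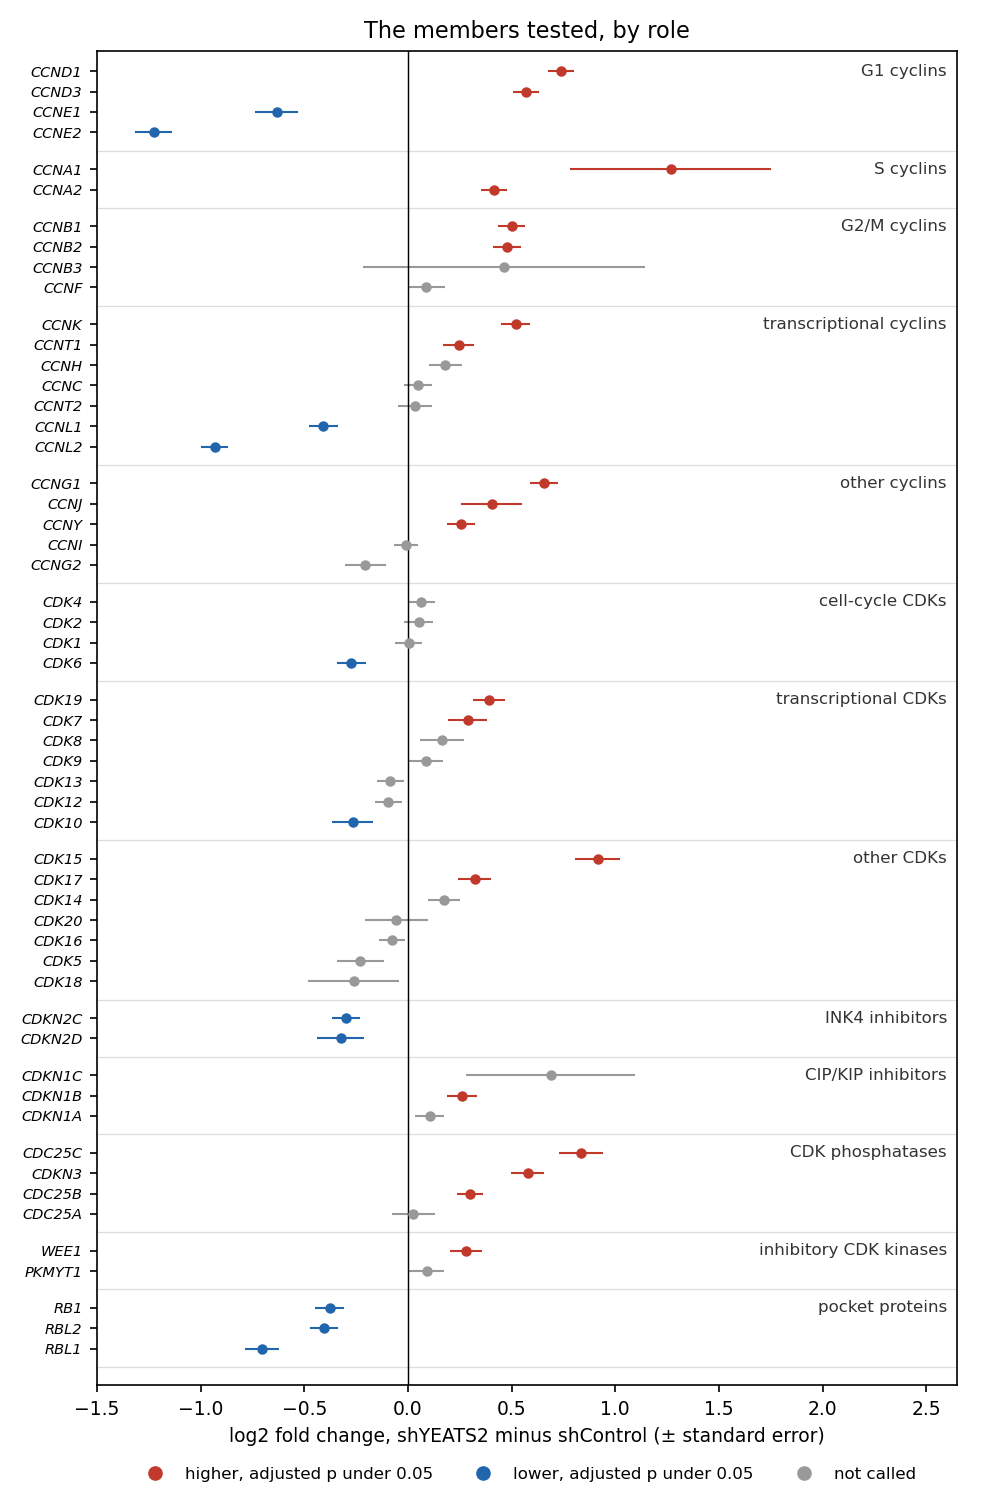
The log2 fold change of each of the 54 genes tested, shYEATS2 minus shControl, on the horizontal axis with its standard error as a bar, grouped by role. Red points are called higher, blue points lower and grey points were not called. The D-type cyclins, CCNA2, CCNB1 and CCNB2 lie right of 0, while both E-type cyclins, both tested INK4 inhibitors and all 3 pocket proteins lie left of it.

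The promoters of cyclins that rose and of genes that fell are shown first, since the letters that E2F and mitotic gene regulators are known to read lie close to the start. RefSeq promoter sequences (GRCh38.p14) were held for 52 of the 59 genes, and those of CCND1, CCND2, CCNE2, CDK2, CDKN1C, PKMYT1 and WEE1 were not in the table. The 150 bases before the start were searched on both strands for CCAAT, for the cell-cycle homology region (TTTGAA or TTCGAA), for the E2F letters (TTTCCCGC, TTTGGCGC, TTTCGCGC or TTTGCCGC) and for the GC box GGGCGG. The genes printed are CCNA2 (chr4:121823884-121824033 on the minus strand), CCNB1 (chr5:69167000-69167149 on the plus strand) and CCNB2 (chr15:59104996-59105145 on the plus strand), which rose, and CCNE1 (chr19:29811841-29811990 on the plus strand) and RBL1 (chr20:37095998-37096147 on the minus strand), which fell. Each runs 5′ to 3′ up to the base before the start, and capitals mark every match.
CCNA2: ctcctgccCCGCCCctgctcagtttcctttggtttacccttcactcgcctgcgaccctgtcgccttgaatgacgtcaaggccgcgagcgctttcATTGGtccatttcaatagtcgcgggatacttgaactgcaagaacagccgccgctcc
CCNB1: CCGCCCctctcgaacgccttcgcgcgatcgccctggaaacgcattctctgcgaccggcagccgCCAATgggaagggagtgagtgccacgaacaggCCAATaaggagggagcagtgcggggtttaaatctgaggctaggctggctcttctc
CCNB2: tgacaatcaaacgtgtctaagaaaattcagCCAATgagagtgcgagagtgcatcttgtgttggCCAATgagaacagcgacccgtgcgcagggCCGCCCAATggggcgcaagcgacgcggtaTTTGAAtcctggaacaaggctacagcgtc
CCNE1: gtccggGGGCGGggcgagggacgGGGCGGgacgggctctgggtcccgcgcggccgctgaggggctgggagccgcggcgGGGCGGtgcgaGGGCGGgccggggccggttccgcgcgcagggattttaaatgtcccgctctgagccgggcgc
RBL1: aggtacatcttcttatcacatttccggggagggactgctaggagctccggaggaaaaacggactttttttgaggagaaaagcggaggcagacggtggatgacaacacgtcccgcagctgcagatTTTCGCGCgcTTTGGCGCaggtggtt

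CCNB2 held 3 CCAAT boxes, starting 120, 87 and 54 bases before the start of the gene, and TTTGAA at 29 bases before it. Its last CCAAT overlaps the GC box on the other strand, so the capitals run together there. CCNB1 held 2 CCAAT boxes at 87 and 55 bases, with a spacing close to that in CCNB2, and CCNA2 held 1, on the other strand, at 56 bases. CCNE1 had none of these and held 4 GC boxes. RBL1 held E2F letters at 26 and 16 bases before its start, which 0.0797% of the 35116 promoters searched hold at least 2 times. A CCAAT box was found for 13 of the 18 higher genes with an entry (72.2%), for 3 of 10 lower genes (30%) and for 4 of 20 genes not called (20%), against 27.8% of all 27305 genes in the table. The cell-cycle homology letters TTTGAA or TTCGAA were found for 3 of the 18 higher genes (16.7%) and for 0 of the 10 lower genes, against 9.72% of all genes. E2F letters were found for 2 of 10 lower genes (20%), 1 of 18 higher genes (5.56%) and 2 of 20 genes not called (10%). Of all genes, 2.24% held them. Other forms of the homology region and of the E2F letters were not searched. A gene without a match may thus still hold one, such as CCNA2 for the region or CCNE1 for E2F. GC boxes were common throughout, in 71.2% of the 52 genes and 40.7% of all genes. Several genes have more than 1 start in the table, and a match is a description of letters.

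The G1 cyclins split. CCND1 and CCND3, the partners of CDK4 and CDK6, rose in shYEATS2, while CCNE1 and CCNE2, the partners of CDK2, fell. CCND1 (ENSG00000110092, chromosome 11 of GRCh38, 69641156 to 69654474) was at 112 and 111 CPM in shControl and at 189 and 181 CPM in shYEATS2. The shYEATS2 libraries thus stood well above the controls, which differed little from each other. Its log2 fold change was 0.74 ± 0.06 (edgeR adjusted p = 1.95e-16). CCND3 was at 125 and 125 CPM in shControl and at 195 and 176 CPM in shYEATS2, a log2 fold change of 0.57 ± 0.06 (edgeR adjusted p = 6.06e-12). In shYEATS2 their mean counts were 185 ± 5.71 CPM for CCND1 and 185 ± 13.4 CPM for CCND3 (SD, n = 2 each), without regard to transcript length. Per kilobase of exon (RPKM), CCND1 stood above CCND3 in shYEATS2, at 39.8 and 38.1 against 33.8 and 30.5. CCND2, the remaining D-type cyclin, had at most 6 counts in a library and 0 counts in 1 library of each condition.

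CCNE2 made the deepest fall of the 54 genes. It was at 43.1 and 44.3 CPM in shControl and at 17.9 and 19.9 CPM in shYEATS2, and no library of one condition came near the other. The fit left it at 42.7% of shControl, with a log2 fold change of −1.23 ± 0.09 (edgeR adjusted p = 3.48e-19). CCNE1 was at 20.3 and 19.9 CPM in shControl and at 13.1 and 12.6 CPM in shYEATS2, so 64.4% remained. Its log2 fold change was −0.63 ± 0.11 (edgeR adjusted p = 7.05e-07). Over all 12 alternative settings and left-out libraries, the log2 fold change ranged from −1.33 to −1.09 for CCNE2 and from −0.69 to −0.50 for CCNE1, and both were called in each. CCNE2 shares 37.1% of its exon bases with genes on the other strand, chiefly INTS8, whose log2 fold change was 0.05 with levels of 67.9 and 73.0 CPM in shControl and 71.4 and 74.4 CPM in shYEATS2.

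The S-phase cyclin CCNA2 rose. It was at 118 and 121 CPM in shControl and at 154 and 165 CPM in shYEATS2, with a log2 fold change of 0.41 ± 0.06 (edgeR adjusted p = 7.33e-08). CCNA1, its germ-line relative, was close to the limit of detection, with 15 and 14 counts in shControl and 24 and 8 counts in shYEATS2. It had the largest rise on the log2 scale, 1.27 ± 0.48 (edgeR adjusted p = 0.0265), but was not called with DESeq2 (adjusted p = 0.17), with no filter (0.07), or with 3 of the 4 libraries left out in turn (0.11 to 0.39).

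The mitotic cyclins CCNB1 and CCNB2 rose by similar amounts. CCNB1 was at 72.7 and 77.0 CPM in shControl and at 105 and 107 CPM in shYEATS2, a log2 fold change of 0.50 ± 0.07 (edgeR adjusted p = 2.13e-09). CCNB2 was at 62.7 and 68.0 CPM and at 89.5 and 92.7 CPM, a log2 fold change of 0.48 ± 0.07 (edgeR adjusted p = 1.68e-08). For both genes the gap between conditions was several times the spread within either. CCNF, an F-box protein that marks regulators of G2 for destruction, was at 26.6 and 27.1 CPM and at 28.2 and 29.0 CPM. Its log2 fold change of 0.09 ± 0.09 was not called, although the groups did not overlap, and it was called with library totals alone (0.22, adjusted p = 0.03). CCNB3, a meiotic cyclin, had 6 and 13 counts in shControl and 9 and 3 counts in shYEATS2, and was not called (0.46 ± 0.68).

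**Figure D2:**
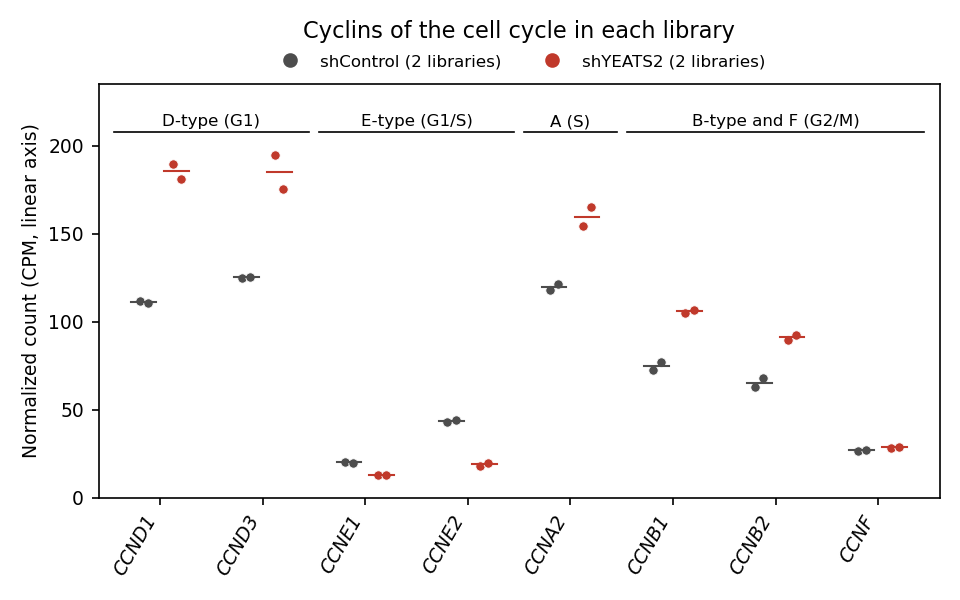
Normalized counts (CPM, linear axis) of the 8 cyclins of the cell cycle above 10 CPM, with a point for each of the 2 shControl (grey) and 2 shYEATS2 (red) libraries and a line at each mean. CCND1, CCND3, CCNA2, CCNB1 and CCNB2 were higher in both shYEATS2 libraries, CCNE1 and CCNE2 were lower in both, and CCNF differed little.

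Genes are compared with each other here per kilobase of exon (RPKM), because longer transcripts collect more reads. Per kilobase, the order of the cyclins in shControl was CCNA2 at 43.5 ± 0.917, CCNB1 at 30.8 ± 1.26, CCNB2 at 23.7 ± 1.36, CCND1 at 23.4 ± 0.17, CCND3 at 21.7 ± 0.0874, CCNE2 at 9.94 ± 0.186 and CCNE1 at 8.15 ± 0.119 RPKM (SD, n = 2 each). CCNB2 and CCND1 could not be ranked, as their libraries overlapped. In shYEATS2 CCND1, at 38.9 ± 1.20 RPKM, stood above CCNB2, at 33.1 ± 0.824 RPKM, and CCNE1, at 5.23 ± 0.133 RPKM, above CCNE2, at 4.30 ± 0.311 RPKM. In CPM CCNE2 stood above CCNE1 in every library, so the order within the E-type cyclins was turned round on the RPKM scale alone. The exon length is that of all annotated exons together, so a gene with many unused exons reads low on this scale.

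Summed by phase, the G1 cyclins were at 63.2 and 63.2 RPKM in shControl and at 83.0 and 78.2 RPKM in shYEATS2. This was 128% of the control sum. The S cyclin CCNA2 reached 134% of its control level, and the G2/M cyclins CCNB1, CCNB2 and CCNF reached 138% of theirs. As a share of all these cyclins, G1 made up 38.8% and 37.6% in shControl and 37.8% and 35.5% in shYEATS2, which overlapped, and G2/M made up 34.9% and 36.1% in shControl and 36.6% and 37.2% in shYEATS2. With the D-type and E-type cyclins summed as G1, the division of these transcripts differed little between conditions. This sum joined opposite changes, and the larger differences lay within it. The D-type cyclins held 27.7% and 26.8% of the sum in shControl and 33.6% and 31.1% in shYEATS2, and the E-type cyclins fell from 11.1% and 10.8% to 4.29% and 4.38%. These shares and the ratios of transcripts within a library do not depend on how the libraries were scaled to each other. They are descriptions, since 2 libraries against 2 cannot give a two-sided p under 0.333 in an exact permutation test.

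The ratio of D-type to E-type cyclins was 2.50 and 2.48 in shControl and 7.82 and 7.10 in shYEATS2. The ratio of CCNA2 to the E-type cyclins was 2.38 and 2.43 in shControl and 5.97 and 6.23 in shYEATS2, and that of the B-type cyclins to the E-type was 2.92 and 3.11, against 8.05 and 8.03. By contrast, the ratio of B-type cyclins to CCNA2 was 1.23 and 1.28, against 1.35 and 1.29. Relative to the D-type cyclins the B-type were a little lower in shYEATS2, at 1.03 and 1.13 against 1.17 and 1.25. The 3 ratios over the E-type cyclins thus reached 254% to 299% of the control, and the 2 others 89.3% and 105%.

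**Figure D3:**
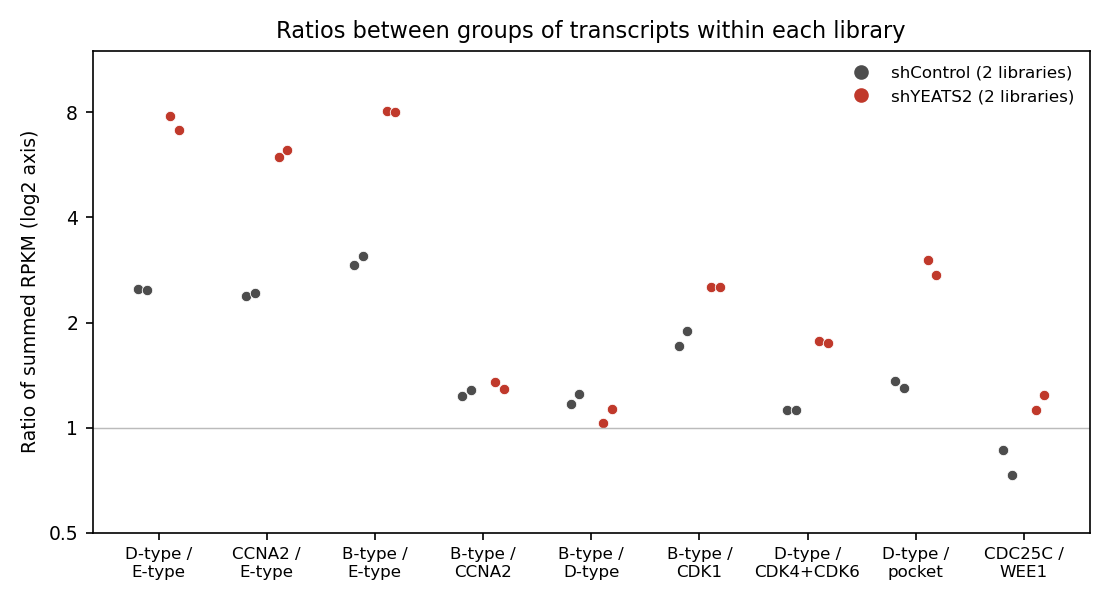
Ratios of summed RPKM within each library on a log2 axis, with a point for each of the 2 shControl (grey) and 2 shYEATS2 (red) libraries and a line at a ratio of 1. Ratios over the E-type cyclins rose from between 2.38 and 3.11 to between 5.97 and 8.05, while B-type over CCNA2 and B-type over D-type stayed between 1.03 and 1.35.

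The G2/M markers moved in the direction of the B-type cyclins and CCNA2. The S-phase markers moved in the direction of the E-type cyclins, against CCNA2. Of 41 S-phase markers that are not among the 59 genes, 29 were lower (70.7%, against 23.6% of all genes) and 1 was higher (POLR1B; 2.44%, against 22.6%), with a median log2 fold change of −0.36, and MCM5, WDR76 and UBR7 fell most, by 0.97, 0.92 and 0.73 on the log2 scale. MCM5 is a subunit of the replicative helicase. Of 47 G2/M markers, 35 were higher (74.5%) and 3 were lower (TUBB4B, CDCA2 and LBR; 6.38%), with a median of 0.39, and the largest rises were those of GAS2L3 (1.13), CENPA (0.99) and AURKA (0.88) on the same scale. The S-phase markers summed to 3090 to 3180 CPM in shControl and to 2450 to 2460 CPM in shYEATS2, and the G2/M markers to 5140 to 5290 CPM and to 6150 to 6350 CPM. In bulk RNA, fewer cells in a phase and less RNA per cell cannot be told apart, so these counts do not say how cells were spread over the cycle.

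The kinases of the cell cycle changed less than the cyclins. CDK1, the mitotic kinase, was at 120 and 117 CPM in shControl and at 118 and 120 CPM in shYEATS2. CDK2, which serves cyclins E and A, was at 66.8 and 63.7 CPM and at 69.5 and 65.3 CPM. CDK4 was at 103 and 102 CPM and at 111 and 103 CPM. The libraries of the conditions overlapped for all 3, and the log2 fold changes were 0.0026, 0.05 and 0.06 with standard errors of 0.06, 0.07 and 0.07. With library totals alone CDK2 and CDK4 were called higher (0.19 and 0.20), and CDK1 was not. CDK4 shares 44.2% of its exon bases with TSPAN31 on the other strand, which had a log2 fold change of −0.12. CDK6 fell, from 83.5 and 87.8 CPM to 67.8 and 74.8 CPM, with a log2 fold change of −0.27 ± 0.07 (edgeR adjusted p = 7.05e-04), and was not called with library totals alone (−0.14, adjusted p = 0.084) or without shControl replicate 2 (−0.24, adjusted p = 0.051). CDK3, a kinase of the G0 to G1 step, had at most 2 counts, and 91.4% of its exon bases are shared with the read-through gene TEN1-CDK3 on the same strand.

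Set against their kinases, the B-type and D-type cyclins had grown, and the E-type had not. The B-type cyclins stood at 1.71 and 1.89 times CDK1 per kilobase in shControl and at 2.52 and 2.53 times in shYEATS2. The D-type cyclins stood at 1.12 and 1.12 times the sum of CDK4 and CDK6 in shControl and at 1.77 and 1.75 times in shYEATS2. By contrast, the E-type cyclins fell from 18.0 and 18.1 RPKM in shControl to 9.4 and 9.65 RPKM in shYEATS2. Their kinase CDK2 was at 17.2 and 16.4 RPKM in shControl and at 17.9 and 16.8 RPKM in shYEATS2.

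Among the INK4 inhibitors, CDKN2A and CDKN2B had 0 counts in all 4 libraries. CDKN2A encodes p16INK4A and ARF, CDKN2B encodes p15INK4B, and they are neighbours on chromosome 9 of GRCh38, at 21967752 to 21995301 and 22002903 to 22009305. A count of 0 allows up to 3 counts, or from 0.0661 CPM in the deepest library to 0.255 CPM in the shallowest, for counting error. The transcripts nearest to them were CDKN2A-DT, also at 0, and CDKN2B-AS1, with 7, 2, 7 and 3 counts in shControl 1 and 2 and shYEATS2 1 and 2. Further out on either side, MTAP was read at 52.2 and 51.3 CPM in shControl and 58.4 and 60.2 CPM in shYEATS2, and DMRTA1 at 9.59 and 10.9 CPM and 8.21 and 8.32 CPM. The RNA thus gave no count for either inhibitor between 2 genes that were read. Whether the genes are present in the DNA was not tested.

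Both other INK4 inhibitors were called lower, against 23.6% of all genes. CDKN2C (p18INK4C) was at 84.2 and 85.3 CPM in shControl and at 71.4 and 65.8 CPM in shYEATS2, with a log2 fold change of −0.30 ± 0.07 (edgeR adjusted p = 2.04e-04). CDKN2D (p19INK4D) was at 15.3 and 14.7 CPM and at 12.7 and 10.9 CPM, a log2 fold change of −0.32 ± 0.11 (edgeR adjusted p = 0.0145). The call of CDKN2D was lost with library totals alone, with DESeq2, with thinned counts and without 3 of the 4 libraries in turn, with adjusted p from 0.053 to 0.17. Their sum per kilobase was 80.3% of the control, and the ratio of CDK4 with CDK6 to these inhibitors went from 1.06 in both shControl libraries to 1.29 and 1.35 in shYEATS2.

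Both shYEATS2 libraries lay above both shControl libraries for the 3 CIP/KIP inhibitors, against 35.3% of all genes. Of the 3, 1 was called higher (33.3%, against 22.6% of all genes). CDKN1B (p27KIP1) was at 46.7 and 49.9 CPM in shControl and at 59.1 and 56.0 CPM in shYEATS2, a log2 fold change of 0.26 ± 0.07 (edgeR adjusted p = 2.62e-03). It was not called without shControl replicate 1 (0.21, adjusted p = 0.15). CDKN1A (p21CIP1), a p53 target, was at 63.3 and 65.2 CPM and at 70.5 and 67.3 CPM. Its log2 fold change of 0.11 ± 0.07 was not called, but was with library totals alone (0.24, adjusted p = 0.0038). CDKN1C (p57KIP2) was at 0.617 and 0.715 CPM and at 0.947 and 1.27 CPM, on at most 28 counts in a library, and was not called (0.69 ± 0.41).

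The phosphatases on the CDK side were called higher for 3 of 4 genes, against 22.6% of all genes. These phosphatases do not all act in the same direction, as the CDC25 phosphatases remove an inhibitory phosphate and CDKN3 an activating phosphate. CDC25C, which acts on CDK1 at the entry into mitosis, was at 11.9 and 11.1 CPM in shControl and at 19.8 and 21.6 CPM in shYEATS2. Its log2 fold change of 0.83 ± 0.11 (edgeR adjusted p = 6.47e-10) was larger than that of CCNB1 or CCNB2. CDKN3, which removes the activating phosphate of CDK2 and CDK1, was at 30.6 and 30.5 CPM and at 44.3 and 47.4 CPM, a log2 fold change of 0.58 ± 0.08 (edgeR adjusted p = 7.5e-09). CDC25B was at 122 and 123 CPM and at 159 and 141 CPM, a log2 fold change of 0.30 ± 0.06 (edgeR adjusted p = 6.78e-05). CDC25A, which acts at G1/S, overlapped between the conditions, at 17.0 and 16.7 CPM in shControl and 17.8 and 16.1 CPM in shYEATS2, with a log2 fold change of 0.03 ± 0.10.

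Of the kinases that oppose the CDC25 phosphatases, WEE1 rose. It was at 38.3 and 42.4 CPM in shControl and at 49.3 and 48.4 CPM in shYEATS2, with a log2 fold change of 0.28 ± 0.08 (edgeR adjusted p = 1.93e-03). Without shControl replicate 1 it was not called (0.20, adjusted p = 0.17). The ratio of CDC25C to WEE1 per kilobase was 0.862 and 0.731 in shControl and 1.12 and 1.24 in shYEATS2. PKMYT1 was at 37.1 and 41.6 CPM and at 45.7 and 36.7 CPM. The shYEATS2 libraries enclosed both controls, and its log2 fold change of 0.09 ± 0.08 was not called. It was called with library totals alone (0.23, adjusted p = 0.043) and without shYEATS2 replicate 2 (0.21, adjusted p = 0.011), and it shares 31.9% of its exon bases with KREMEN2 and PAQR4 on the other strand.

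All 3 pocket proteins, the targets of the D-type cyclin kinases, were called lower, against 23.6% of all genes. RBL1 (p107), which pairs with the repressor E2Fs, fell most. It was at 48.1 and 52.8 CPM in shControl and at 28.9 and 33.9 CPM in shYEATS2, so 61.3% remained, with a log2 fold change of −0.71 ± 0.08 (edgeR adjusted p = 7.69e-11). RBL2 (p130), the pocket protein of quiescent cells, was at 107 and 111 CPM and at 87.0 and 76.9 CPM, with a log2 fold change of −0.40 ± 0.07 (edgeR adjusted p = 7.23e-07). RB1 was at 76.2 and 78.5 CPM and at 56.5 and 63.5 CPM, with a log2 fold change of −0.38 ± 0.07 (edgeR adjusted p = 8.0e-06). All 3 were called under each of the 12 alternative settings and left-out libraries. The ratio of D-type cyclins to pocket proteins per kilobase was 1.36 and 1.30 in shControl and 3.02 and 2.74 in shYEATS2.

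**Figure D4:**
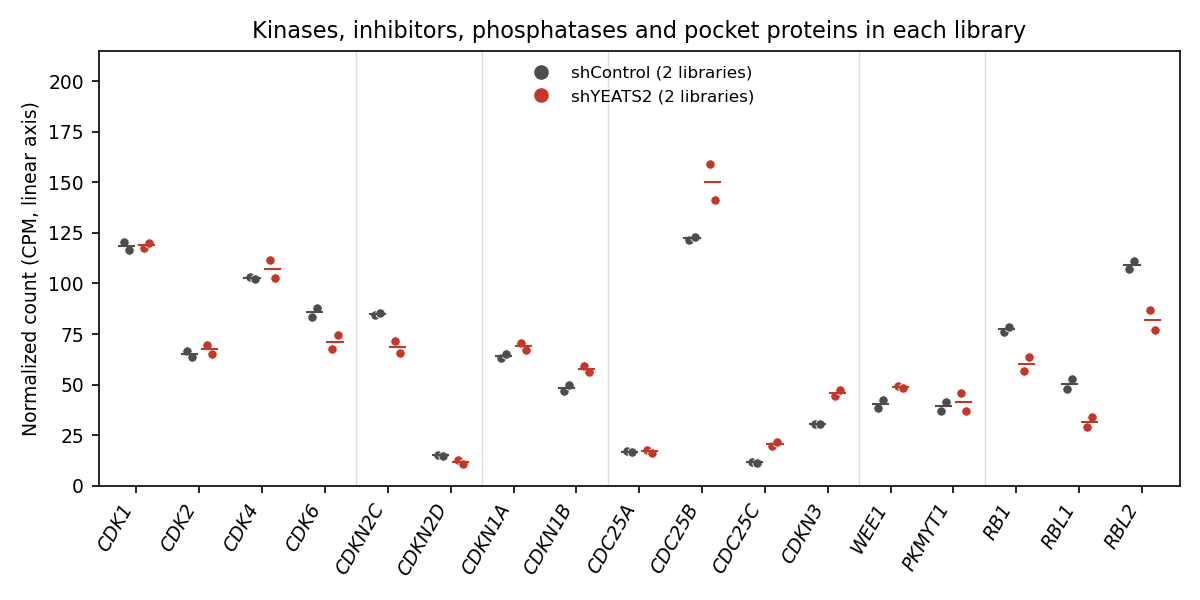
Normalized counts (CPM, linear axis) of the cell-cycle kinases, INK4 and CIP/KIP inhibitors, phosphatases, WEE1, PKMYT1 and pocket proteins above 10 CPM, with a point for each of the 2 shControl (grey) and 2 shYEATS2 (red) libraries and a line at each mean. CDK1, CDK2 and CDK4 overlapped between conditions, CDC25C and CDKN3 stood higher in shYEATS2, and RB1, RBL1 and RBL2 stood lower.

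The E2F factors and the DREAM complex, which the pocket proteins bind, had 7 higher (38.9%, against 22.6% of all genes) and 4 lower genes (22.2%, against 23.6%) of 18, with a median log2 fold change of 0.01. Above 10 CPM, E2F6, a repressor that does not bind pocket proteins, moved most, with a log2 fold change of 0.55, followed by TFDP1, the dimer partner of E2Fs, with −0.52, and RBBP4 with −0.49. TFDP1 was at 191 and 194 CPM in shControl and at 133 and 135 CPM in shYEATS2. Of 29 genes that carry out or control the destruction of cyclins and CDK inhibitors, 7 were higher and 7 were lower. This was 24.1% each, which is close to the shares over all genes. SKP2, which targets CDKN1B, fell from 70.6 and 77.0 CPM to 40.2 and 43.1 CPM, a log2 fold change of −0.83 ± 0.07 (edgeR adjusted p = 3.49e-15). CDC20 and UBE2S, which serve the anaphase-promoting complex, rose, with log2 fold changes of 0.71 and 0.67.

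The cyclins and CDKs that act in transcription moved in both directions. Of the 7 cyclins, 2 were higher and 2 were lower, or 28.6% each, against 22.6% and 23.6% of all genes. CCNL2, a partner of CDK11 in splicing, fell from 121 and 123 CPM in shControl to 63.3 and 64.6 CPM in shYEATS2, the second deepest fall of the 54 genes, with a log2 fold change of −0.93 ± 0.07 (edgeR adjusted p = 2.36e-19). Its relative CCNL1 fell less, from 72.0 and 74.0 CPM to 52.6 and 58.2 CPM, with a log2 fold change of −0.41 ± 0.07. CCNK, the partner of CDK12 and CDK13, rose from 54.6 and 50.9 CPM to 77.4 and 73.5 CPM, with a log2 fold change of 0.52 ± 0.07 (edgeR adjusted p = 4.44e-09). Its kinases did not pass the test, with log2 fold changes of −0.09 and −0.08 and standard errors of 0.06. CCNK shares 59.5% of its exon bases with CCDC85C on the other strand, which had a log2 fold change of 0.54. Likewise LTO1, which overlaps 10.4% of the exon bases of CCND1, had one of 0.73, beside 0.74 for CCND1. LTO1 was at 12.5 and 11.4 CPM in shControl and at 20.6 and 18.8 CPM in shYEATS2. CCDC85C was at 10.9 and 11.9 CPM in shControl and at 17.05 and 15.9 CPM in shYEATS2. LTO1 thus stood below CCND1, and CCDC85C below CCNK, in every library. The strand setting of the counting is not given, and the part of reads from such partners in these changes was not tested.

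Among the 7 transcriptional CDKs, 2 were higher (28.6%) and 1 was lower (14.3%), against the same shares over all genes, with log2 fold changes from −0.27 to 0.39. CDK19, a kinase of the Mediator complex, rose from 38.0 and 36.7 CPM to 47.8 and 50.7 CPM, with a log2 fold change of 0.39 ± 0.08 (edgeR adjusted p = 2.0e-05). CDK7, the CDK-activating kinase, rose from 20.3 and 19.5 CPM to 24.5 and 24.1 CPM (0.29, adjusted p = 8.9e-03), and its call was lost under 5 of 12 settings, with DESeq2 at an adjusted p of 0.054. CDK10 was at 25.2 and 25.7 CPM and at 23.4 and 17.9 CPM, with shYEATS2 replicate 2 far below the other 3 libraries. Its log2 fold change of −0.27 (edgeR adjusted p = 0.0211) became −0.13 without that library (adjusted p = 0.26), and the call was lost in 5 of 12 settings.

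The remaining cyclins and kinases had 5 higher genes and no lower gene among the 12 tested. The higher calls were 3 of 5 cyclins and 2 of 7 kinases, against 22.6% of all genes, and 23.6% of all genes were lower. CCNG1, a p53 target, rose from 62.3 and 66.1 CPM in shControl to 102 and 100.1 CPM in shYEATS2, with a log2 fold change of 0.66 ± 0.07 (edgeR adjusted p = 4.16e-13). CDK15 rose from 9.72 and 12.3 CPM to 20.5 and 21.0 CPM, the largest rise among genes above 10 CPM, with a log2 fold change of 0.91 ± 0.11 (edgeR adjusted p = 1.88e-10). CCNY, CDK17 and CCNJ had log2 fold changes of 0.25, 0.32 and 0.40. CCNJ was at 6.11 and 6.96 CPM and at 7.50 and 10.4 CPM, and without shYEATS2 replicate 2 its log2 fold change was 0.20 (adjusted p = 0.34). CCNI, the most abundant of the 54 genes per kilobase, was at 268 and 277 CPM and at 278 and 263 CPM, so its groups overlapped. CCNG2, with a log2 fold change of −0.21 ± 0.10, was not called.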

How the data were processed

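The 4 libraries were stranded mRNA libraries made from TRIzol extracts and read from both ends. The deposited values are raw counts per Ensembl gene, which the authors made with HTSeq from STAR alignments to GRCh38. The annotation release and strand setting are not given in the sources used here. Tallies of read pairs given to no gene (15.3% to 16.5%) were left out. After filterByExpr and TMM scaling, the quasi-likelihood test of edgeR 4.0.16 was run with robust dispersions in R 4.3.3, with Benjamini-Hochberg adjustment over 17058 genes. The standard error is the log2 fold change over the root of the F statistic. Beside a level, ± is the SD of 2 libraries. RPKM used the joined exons of GENCODE 44, which held 60295 of the 60623 identifiers. The common biological coefficient of variation was 4.95%. Replicates differed by more than counting noise (chi-square per degree of freedom 6.39 in shControl and 5.82 in shYEATS2).

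The alternatives were DESeq2 size factors or library totals alone, no filter on low counts or a minimum of 10 counts per library, the tests of DESeq2 1.42.0 and of limma-voom (limma 3.58.1), the replicate number as a block, counts thinned to 11334133 per library, an adjusted p under 0.01, and each library left out in turn. The scripts were tested on simulated data with known fold changes. The genes, the lists of E2F, DREAM and degradation genes, the phase and cell type markers, and the genes searched for promoter letters were chosen with earlier results of these data known. By rule, each gene of the cell-cycle classes is given by library, and of the other classes and lists up to 3 called genes with the largest change, for lists above a mean of 10 CPM. CCNI, CCNG2, INTS8, CCDC85C, LTO1, PAQR4, KREMEN2, TSPAN31, MTAP, DMRTA1, CDKN2A-DT and CDKN2B-AS1 were added after their values were seen.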

Additional observations from a re-analysis of the deposited data

How the results depend on the processing

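Leaving out 1 library left 8 to 13 of the genes called lower and 13 to 21 called higher, against 11 and 20 with all libraries. Without shControl replicate 1 the higher calls were 13, with CCNA1, CCNJ, CCNT1, CCNY, CDK7, CDKN1B and WEE1 lost. Under the other settings the lower calls ranged from 8 to 12 and the higher from 17 to 30, and no gene called in both changed direction. The replicate block gave 12 lower and 22 higher calls, with all 31 calls kept and CCNH, CDK14 and CDK5 gained. Libraries of the same number did not deviate together (the replicate differences of the conditions correlated at −0.018 across genes), so this fit is given for its counts alone. Of all genes tested, 4019 were lower and 3857 higher, and 2567 and 5441 with library totals alone. Without filter the median of all genes was −0.10. Over the 39 genes named by rule, 287 of 308 values under the other settings kept direction and call, 14 lost the call, 5 gained it and 2 changed sign. These 2 were CDK1 (−0.05) and CDC25A (−0.02) with no filter, neither of them called. Of 154 values without a library, 129 kept both, 17 lost the call, 1 gained it and 7 changed sign, all in genes not called: CDK1 (−0.03 to 0.02), CDK2 (−0.02 to 0.09), CDK4 (−0.02 to 0.11), CDC25A (−0.08 to 0.08) and PKMYT1 (−0.11 to 0.21). The cause of these changes was not tested. CCNB3 could not be fitted in every setting for want of counts. Depth limits CCNA1, CCNB3 and CDKN1C most, each under 30 counts in a library.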
